A study of Mus musculus with 3 samples.

Results

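The genes described here are 10 members of the Notch pathway: the ligands Dll1, Dll4, Jag1 and Jag2, the receptors Notch1, Notch2 and Notch3, and the basic helix-loop-helix factors Hes1, Hes6 and Atoh1. They were taken by name from 24137 gene symbols measured in cells sorted from the mouse upper small intestine. All 10 had at least 1 transcript model in the files. The mice were C57BL/6, no source used here gives their age, and each group is 1 library made from RNA samples pooled in equal amounts and not amplified. GIP-GFP holds fluorescent cells of a reporter mouse for the incretin hormone GIP. Ngn3-TOMATO holds tomato-positive, CD45-negative epithelial cells of male mice that carried Ngn3-Cre and a ROSA26-LoxP-STOP-LoxP-tomato allele, so that cells are labelled when they or their progenitors expressed Neurogenin 3. Ngn3-negative holds the tomato-negative, CD45-negative epithelial cells of such mice, which include enterocytes, goblet cells and Paneth cells per the series' design text. No CD45 gate is stated for GIP-GFP.

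Notch signaling passes between touching cells. A ligand of the Delta or Jagged kind on a cell binds a Notch receptor on its neighbour, the receptor is cut, and its inner part enters the nucleus to switch on repressors such as Hes1. In the intestinal crypt Hes1 holds down Atoh1, the factor that starts the secretory fate of goblet, Paneth and enteroendocrine cells, and the secretory cells present ligand to the stem cells and absorptive progenitors around them. Hes6 is a relative of Hes1 that opposes it in neural differentiation.

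Promoter stretches of Hes6, Dll4 and Atoh1 are shown first, because these were the 3 members with the highest levels in Ngn3-TOMATO. RefSeq (GRCm38.p6, the sequence of mm10) gave promoters for 9 of the 10 members, 11 in all, and Hes1 had no entry. Each line holds the 250 bases before the start site nearest that of the files' transcript, 5′ to 3′ on the gene's strand. In Hes6 (chr1:91413223-91413472, minus strand) the capitals mark a CAGCTG E-box, a kind of site that Atoh1 and related factors bind. In Dll4 (chr2:119325534-119325783, plus strand) they mark 31 bases that are also exon of Gm14207, a noncoding transcript of the opposite strand. Atoh1 (chr6:64728875-64729124, plus strand) has none to mark.
Hes6: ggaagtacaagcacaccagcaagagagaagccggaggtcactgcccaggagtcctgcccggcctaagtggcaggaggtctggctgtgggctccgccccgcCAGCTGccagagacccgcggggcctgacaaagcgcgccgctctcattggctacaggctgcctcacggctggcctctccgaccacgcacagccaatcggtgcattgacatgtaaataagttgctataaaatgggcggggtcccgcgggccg
Dll4: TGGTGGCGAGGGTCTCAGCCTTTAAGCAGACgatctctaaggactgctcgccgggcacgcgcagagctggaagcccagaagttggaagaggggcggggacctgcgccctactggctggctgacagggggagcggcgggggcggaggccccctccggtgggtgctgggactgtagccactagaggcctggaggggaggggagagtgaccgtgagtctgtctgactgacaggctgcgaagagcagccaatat
Atoh1: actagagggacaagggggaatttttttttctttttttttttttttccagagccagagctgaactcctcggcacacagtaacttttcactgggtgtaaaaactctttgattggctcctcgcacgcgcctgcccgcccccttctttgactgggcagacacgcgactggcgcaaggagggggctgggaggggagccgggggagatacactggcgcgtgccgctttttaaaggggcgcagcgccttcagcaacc

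The E-box CAGCTG, which reads the same on both strands, was found in 4 of the 11 member promoters, against 13.0% of 32851 promoters of the same length. These were both Hes6 promoters, at -171 and -150 from their start sites, Jag1 at -82 and 1 of 2 Dll1 promoters at -132. The core GTGGGAA of RBPJ sites, searched on both strands, and the E-box CACGTG were in 0 of the 11, against 5.42% and 6.02% of all promoters. The member promoters had a median GC content of 64.0% and a median of 17.0 CG dinucleotides, against 52.4% and 6.00 over all promoters. A match of letters is a description and not a site of binding.

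Levels are given in scaled FPKM, the deposited FPKM summed per gene and divided by 1 common number, a value per transcript length. Summed read bases were 592.1 Mb in GIP-GFP cells, 1380 Mb in Ngn3-TOMATO cells and 1030 Mb in Ngn3-negative cells. With 1 library per group there is no replicate and no test, and the ranges in parentheses are 95% counting intervals, which leave out the difference between mice and between sorts. Ratios between libraries are log2 after 1 was added to each value, and a gene was counted as higher or lower past 2-fold. Enteroendocrine markers summed to 278813 scaled FPKM in GIP-GFP cells, 82301 in Ngn3-TOMATO cells and 1520 in Ngn3-negative cells, which sets both reporter sorts apart from the negative sort. Gip, the gene behind the GIP-GFP sort, made up 86.4% of the first sum. Without it the other 7 markers summed to 37892, 54341 and 792, highest in Ngn3-TOMATO. Of these 7, Chga, Chgb, Neurod1 and Cck were highest in Ngn3-TOMATO, and Pax6, Isl1 and Sct in GIP-GFP. Goblet markers, without Fcgbp, summed to 5334, 170327 and 30798 in the order GIP-GFP, Ngn3-TOMATO and Ngn3-negative. Paneth markers summed to 2332, 27312 and 4845, so both were highest in Ngn3-TOMATO. Enterocyte markers summed to 12405, 8541 and 42952 and cell cycle markers to 94.6, 114 and 350, both highest in Ngn3-negative. In pooled sorts, fewer cells of a type and less RNA per cell cannot be told apart.

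The ligand genes Dll4 and Jag2 were far above the negative epithelium in both reporter sorts, while Jag1 was highest in the negative epithelium and Dll1 was lowest in GIP-GFP. Dll4, a Delta ligand presented by crypt secretory cells, lies on chromosome 2, 119325784 to 119335666 (plus strand, transcript uc008ltr.2). It stood at 36.8 scaled FPKM (34.1 to 39.4) in GIP-GFP cells, 99.9 (97.2 to 103) in Ngn3-TOMATO cells and 12.8 (11.7 to 13.9) in Ngn3-negative cells. Ngn3-TOMATO was thus highest and Ngn3-negative lowest, with no overlap of the intervals. The log2 ratio was 2.87 (2.75 to 2.99) for Ngn3-TOMATO over Ngn3-negative, which is 7.29-fold. For GIP-GFP over Ngn3-negative it was 1.45 (1.30 to 1.60), and for GIP-GFP over Ngn3-TOMATO -1.42 (-1.53 to -1.31).

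Dll4 is also a ligand of blood vessel endothelium. The 7 endothelial markers summed to 2.12 scaled FPKM in GIP-GFP cells, 10.4 in Ngn3-TOMATO cells and 0.893 in Ngn3-negative cells. Of these, 5, 3 and 2 were listed at 0 in the same order. Most of each reporter sum was Pecam1, at 1.97, 9.68 and 0.342, which had the library order of Dll4. The other 6 were below 1 in each library, with Cdh5 and Kdr listed at 0 in both reporter libraries, and the part of endothelial cells in the Dll4 values was not tested. The goblet, Paneth and tuft cell marker sums were highest in the same library as Dll4, Dll1 and Jag2. None of those markers was at 0, and their part in the ligand values was not tested. Gm14207 shares 214 exon bases with Dll4, of 3852, and without strand the reads there cannot be told apart. It stood at 23.1 in GIP-GFP and 8.06 in Ngn3-negative and was listed at 0 in Ngn3-TOMATO, where Dll4 was highest.

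Jag2, a ligand of the Jagged kind, lies on chromosome 12, 112908590 to 112929495 (minus strand, uc007pfl.1). Its level was 14.7 scaled FPKM (13.1 to 16.3) in GIP-GFP cells, 23.5 (22.3 to 24.7) in Ngn3-TOMATO cells and 2.04 (1.63 to 2.45) in Ngn3-negative cells. Both reporter sorts were well above the negative sort, whose value rests on a mean of 1.02 reads per base. Over Ngn3-negative, the log2 ratio was 3.01 (2.81 to 3.22) for Ngn3-TOMATO and 2.37 (2.13 to 2.61) for GIP-GFP. Between the reporter sorts it was -0.64 (-0.81 to -0.48). Because the negative value is low, the ratio depends on the number added: it ran from 2.02 to 3.47 for Ngn3-TOMATO and from 1.48 to 2.79 for GIP-GFP over the settings tried.

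Dll1, the other Delta ligand of crypt secretory cells, lies on chromosome 17, 15367354 to 15375823 (minus strand, uc008aoi.2). It was at 19.5 scaled FPKM (17.7 to 21.4) in GIP-GFP cells, 58.4 (56.3 to 60.4) in Ngn3-TOMATO cells and 39.8 (37.9 to 41.7) in Ngn3-negative cells. The order therefore differed from that of Dll4 and Jag2, with GIP-GFP lowest. The log2 ratio was 0.54 (0.46 to 0.62) for Ngn3-TOMATO over Ngn3-negative, and -1.53 (-1.67 to -1.39) for GIP-GFP over Ngn3-TOMATO. That of GIP-GFP over Ngn3-negative, -0.99 (-1.14 to -0.84), lay at the 2-fold line and passed it, at -1.19, when libraries were scaled to equal totals, and, at -1.02, when a smaller number was added to each value.

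Jag1, the other Jagged ligand, lies on chromosome 2, 137081451 to 137116520 (minus strand, uc008moz.2). It was at 4.46 scaled FPKM (3.77 to 5.15) in GIP-GFP cells, 5.57 (5.07 to 6.08) in Ngn3-TOMATO cells and 8.52 (7.80 to 9.23) in Ngn3-negative cells. The negative sort was highest, and the intervals of the reporter sorts overlapped. The log2 ratios of -0.53 (-0.69 to -0.38) for Ngn3-TOMATO and -0.80 (-1.01 to -0.59) for GIP-GFP over Ngn3-negative were within 2-fold.

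**Figure D1:**
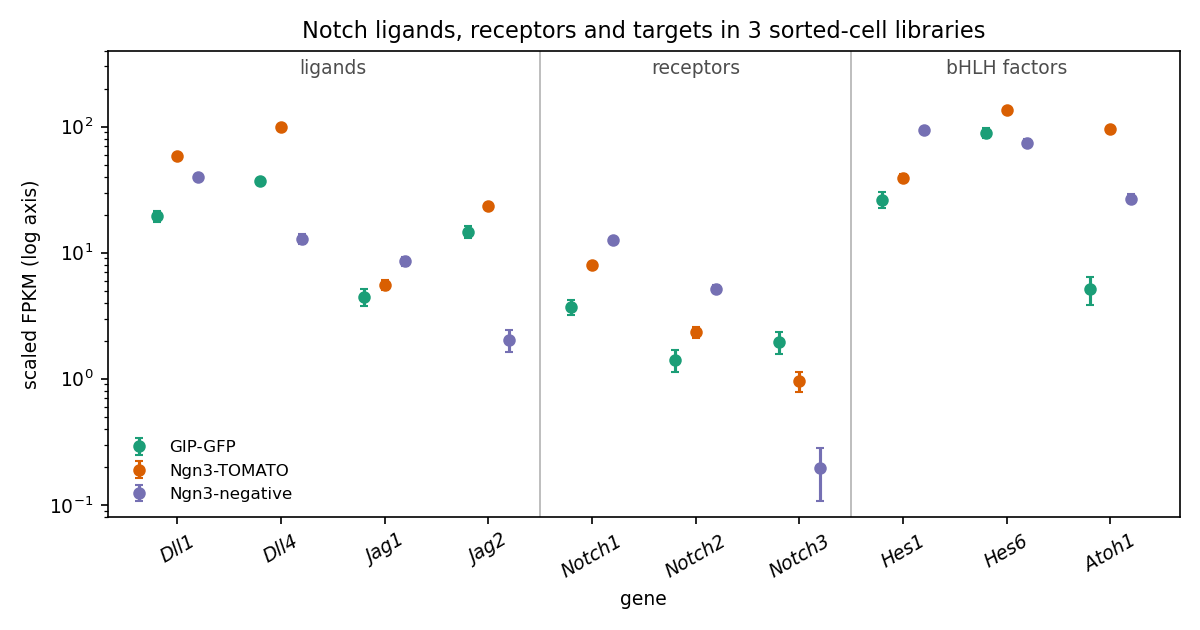
Level of each gene in scaled FPKM (log axis) in the 3 libraries, 1 point per library with its 95% counting interval, grouped as ligands, receptors and basic helix-loop-helix (bHLH) factors. Dll4 ran from 12.8 in Ngn3-negative to 99.9 in Ngn3-TOMATO, Hes1 was highest in Ngn3-negative at 93.4, and Atoh1 ran from 5.13 in GIP-GFP to 95.8 in Ngn3-TOMATO.

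The receptor genes Notch1 and Notch2, which carry the Notch signal in intestinal progenitors, were highest in the negative epithelium and lowest in GIP-GFP. Notch1 lies on chromosome 2, 26457902 to 26503822 (minus strand, uc008ivl.2). It was at 3.72 scaled FPKM (3.22 to 4.21) in GIP-GFP cells, 7.96 (7.52 to 8.41) in Ngn3-TOMATO cells and 12.5 (11.9 to 13.2) in Ngn3-negative cells. None of these intervals overlapped. Over Ngn3-negative, the log2 ratio was -0.59 (-0.69 to -0.50) for Ngn3-TOMATO and -1.52 (-1.69 to -1.35) for GIP-GFP. Between the reporter sorts it was -0.93 (-1.09 to -0.76), and it passed 2-fold, at -1.08, when 0.1 was added in place of 1. A noncoding transcript of the opposite strand, 0610009E02Rik, shares 1068 exon bases with Notch1, of 14232. It stood at 5.51 in GIP-GFP, above Notch1 there, and at a listed 0 in the other libraries. Without strand the reads in the shared bases cannot be told apart, and their part in the Notch1 values was not tested.

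Notch2 lies on chromosome 3, 98013538 to 98150367 (plus strand, uc008qpo.1). It was at 1.41 scaled FPKM (1.13 to 1.69) in GIP-GFP cells, 2.33 (2.10 to 2.56) in Ngn3-TOMATO cells and 5.15 (4.77 to 5.54) in Ngn3-negative cells. The order was that of Notch1, again with no overlap of the intervals. The log2 ratio was -0.89 (-1.02 to -0.75) for Ngn3-TOMATO over Ngn3-negative and reached -1.11 with 0.1 added. For GIP-GFP over Ngn3-negative it was -1.35 (-1.54 to -1.16), and this difference was within 2-fold, at -0.66, with 5 added.

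Notch3, a receptor best known from vascular smooth muscle and pericytes, was low everywhere and had the opposite order. It lies on chromosome 17, 32120893 to 32166852 (minus strand, uc008bvx.1). It was at 1.97 scaled FPKM (1.57 to 2.37) in GIP-GFP cells, 0.954 (0.779 to 1.13) in Ngn3-TOMATO cells and 0.195 (0.107 to 0.283) in Ngn3-negative cells. GIP-GFP was thus highest, and the negative value rests on a mean of 0.0978 reads per base. The log2 ratio was 1.31 (1.09 to 1.53) for GIP-GFP over Ngn3-negative, and within 2-fold, at 0.42, with 5 added. Between the reporter sorts it was 0.60 (0.37 to 0.84), and Ngn3-TOMATO over Ngn3-negative was not counted because both values were below 1.

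The 8 markers of mural cells and fibroblasts were all below 1 scaled FPKM in each library, with sums of 0.894 in GIP-GFP cells, 1.13 in Ngn3-TOMATO cells and 1.29 in Ngn3-negative cells. Of these markers 3, 1 and 0 were listed at 0 in that order. The 10 leukocyte markers summed to 303, 59.0 and 133 in the same order, so they were highest in the library where Notch3 was highest. None of the 10 was listed at 0 in any library, and their part in the Notch3 values was not tested. The antisense gene Gm17276 shares 488 exon bases with Notch3, of 8089, and stood at 1.46 in GIP-GFP cells, 0.954 in Ngn3-TOMATO cells and a listed 0 in Ngn3-negative cells, so reads there cannot be assigned to a strand.

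Hes1, the repressor that Notch switches on, was lower in both reporter sorts than in the negative epithelium, while Hes6 was within 2-fold in every comparison, with its highest level in Ngn3-TOMATO. Hes1 lies on chromosome 16, 30065357 to 30067796 (plus strand, uc007ywl.1). It was at 26.4 scaled FPKM (22.7 to 30.1) in GIP-GFP cells, 39.3 (36.4 to 42.2) in Ngn3-TOMATO cells and 93.4 (88.3 to 98.5) in Ngn3-negative cells. The negative sort stood clear of both others. Log2 ratios were -1.23 (-1.36 to -1.10) for Ngn3-TOMATO, -1.79 (-2.00 to -1.58) for GIP-GFP over Ngn3-negative, and -0.56 (-0.78 to -0.34) between the reporter sorts. Markers of enterocytes and of the cell cycle had the same highest library as Hes1, and the part of cell makeup in its values was not tested.

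Hes6 lies on chromosome 1, 91411483 to 91413222 (minus strand, uc007cau.1). It was at 89.4 scaled FPKM (81.5 to 97.3) in GIP-GFP cells, 136 (130 to 142) in Ngn3-TOMATO cells and 74.7 (69.9 to 79.5) in Ngn3-negative cells, the highest member in both reporter libraries. The intervals did not overlap, and the span from lowest to highest, 1.82-fold, was the narrowest of the 10 genes. Both of its models had reads, and uc007cau.1 held 80.6% of the Hes6 value in GIP-GFP cells, 79.8% in Ngn3-TOMATO cells and 84.9% in Ngn3-negative cells. Log2 ratios over Ngn3-negative were 0.85 (0.74 to 0.97) for Ngn3-TOMATO and 0.26 (0.10 to 0.41) for GIP-GFP. The first of these reached the 2-fold line, at 1.00, when totals were equalised without the most abundant genes.

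Atoh1 had the widest span of the 10 genes, 18.7-fold from GIP-GFP to Ngn3-TOMATO. It lies on chromosome 6, 64729146 to 64731235 (plus strand, uc009ceb.2), and stood at 5.13 scaled FPKM (3.82 to 6.44) in GIP-GFP cells, 95.8 (92.3 to 99.3) in Ngn3-TOMATO cells and 26.9 (24.8 to 29.1) in Ngn3-negative cells. GIP-GFP was thus also below the negative epithelium. The log2 ratio was 1.79 (1.67 to 1.92) for Ngn3-TOMATO and -2.19 (-2.51 to -1.86) for GIP-GFP over Ngn3-negative, and -3.98 (-4.29 to -3.67) between the reporter sorts. Goblet and Paneth cells keep Atoh1 as they mature, and their markers had the same highest library. All 6 measured goblet markers were past 2-fold in both comparisons with Ngn3-TOMATO, with a median log2 ratio of 2.38 for Ngn3-TOMATO over Ngn3-negative and -4.56 for GIP-GFP over Ngn3-TOMATO. The medians of the 6 Paneth markers were 2.45 and -3.51. None of these markers was at 0 in any library, and their part in the Atoh1 values was not tested.

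**Figure D2:**
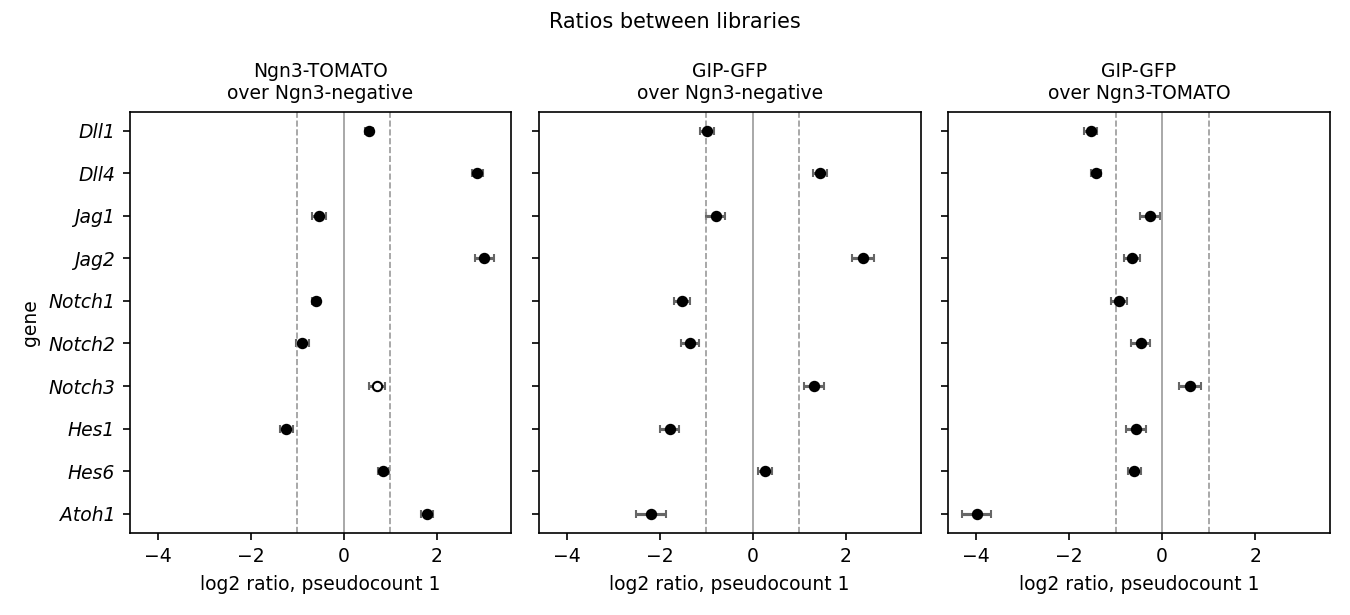
Log2 ratio of each gene for the 3 pairs of libraries, with 95% counting intervals and dashed lines at 2-fold. The open point marks Notch3 in the first pair, where both values were below 1. Dll4 and Jag2 lie past 2-fold above Ngn3-negative in both reporter sorts, and Atoh1 changes side, from 1.79 in Ngn3-TOMATO to -2.19 in GIP-GFP.

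Counted together, 3 of the 9 members measured in the first comparison (Dll4, Jag2 and Atoh1) were higher past 2-fold in Ngn3-TOMATO than in Ngn3-negative and 1 (Hes1) was lower. Over all 13427 genes compared, 19.2% were higher and 9.96% lower, and the median log2 ratio was 0.03. For GIP-GFP over Ngn3-negative, 3 of 10 members were higher (Dll4, Jag2 and Notch3) and 4 lower (Notch1, Notch2, Hes1 and Atoh1), against 21.0% and 13.8% of 13447 genes with a median of 0.07. For GIP-GFP over Ngn3-TOMATO, 0 of 10 were higher and 3 lower (Dll1, Dll4 and Atoh1), against 8.04% and 8.77% of 13716 genes with a median of 0.08. The comparisons share libraries and are not independent of each other. Of all genes past 2-fold between Ngn3-TOMATO and Ngn3-negative 65.9% were higher, against 53.3% after scaling to equal totals.

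Ratios within a library do not depend on the scaling between libraries. The 4 ligands together stood at 75.5 scaled FPKM in GIP-GFP cells, 187 in Ngn3-TOMATO cells and 63.2 in Ngn3-negative cells, and the 3 receptors at 7.10, 11.3 and 17.9. The ratio of summed ligand to summed receptor was 10.6 (9.53 to 11.9) in GIP-GFP cells, 16.7 (15.8 to 17.5) in Ngn3-TOMATO cells and 3.53 (3.34 to 3.74) in Ngn3-negative cells. It was therefore higher in both reporter sorts, and highest in Ngn3-TOMATO.

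The make-up of the ligands also differed between the sorts. Dll4 was the most abundant ligand of both reporter libraries, with 48.7% of the ligand sum in GIP-GFP and 53.3% in Ngn3-TOMATO, against 20.3% in Ngn3-negative. Dll1 led the negative library with 63.0%, against 25.9% and 31.1% in GIP-GFP and Ngn3-TOMATO. The share of Jag2 was 19.5%, 12.5% and 3.22%, and that of Jag1 5.91%, 2.97% and 13.5%, in the order GIP-GFP, Ngn3-TOMATO and Ngn3-negative. Dll4 was 1.88 times Dll1 (1.67 to 2.12) in GIP-GFP and 1.71 times (1.64 to 1.79) in Ngn3-TOMATO, which do not differ beyond their intervals, and 0.323 times (0.292 to 0.356) in Ngn3-negative.

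**Figure D3:**
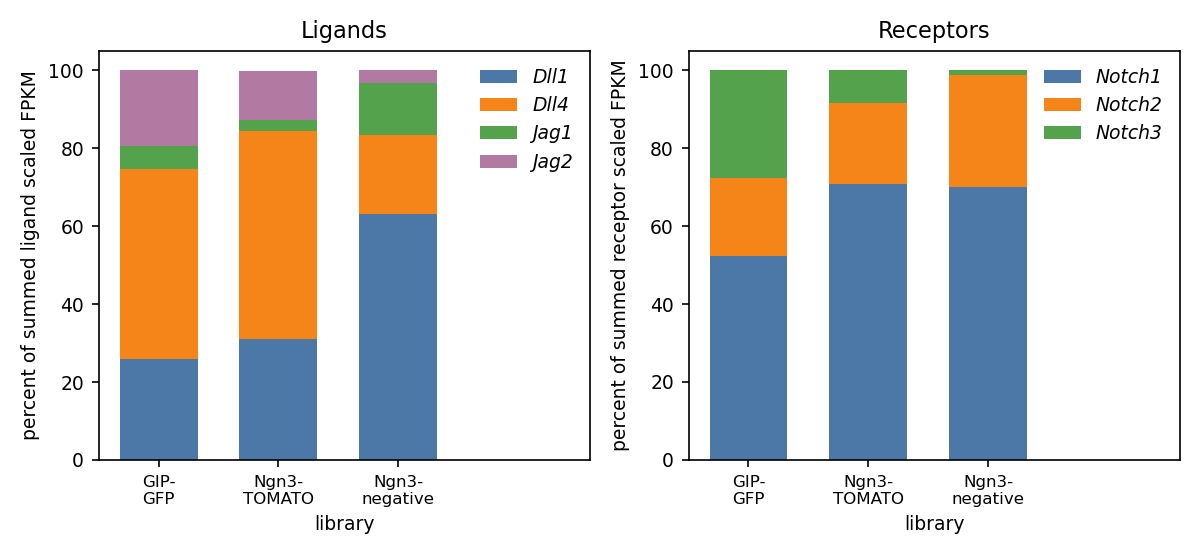
Share of each gene in the summed scaled FPKM of the ligands and of the receptors in each library, as stacked bars that add to the whole. Dll1 made up 63.0% of the ligand sum in Ngn3-negative and Dll4 53.3% in Ngn3-TOMATO.

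Among the receptors Notch1 was first in every library, with 52.4% of the sum in GIP-GFP cells, 70.8% in Ngn3-TOMATO cells and 70.1% in Ngn3-negative cells. Notch3 made up 27.7%, 8.48% and 1.09% in that order. In GIP-GFP the intervals of Notch3 and Notch2 overlapped, so their order there is not settled. The ratio of Notch1 to Notch2 was 2.63 (2.08 to 3.34) in GIP-GFP and 2.43 (2.22 to 2.66) in Ngn3-negative, which overlap, and 3.42 (3.05 to 3.83) in Ngn3-TOMATO.

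The ratio of Hes6 to Hes1 did not differ between the reporter sorts beyond its intervals and was lower in the negative sort. Hes6 was 3.39 times Hes1 (2.87 to 4.0) in GIP-GFP cells, 3.46 times (3.18 to 3.77) in Ngn3-TOMATO cells and 0.800 times (0.735 to 0.870) in Ngn3-negative cells. Atoh1 was 2.44 times Hes1 (2.25 to 2.65) in Ngn3-TOMATO, and 0.194 times (0.145 to 0.260) in GIP-GFP and 0.288 times (0.261 to 0.317) in Ngn3-negative. Jag2 was 3.29 times Jag1 (2.72 to 3.98) in GIP-GFP cells, 4.22 times (3.8 to 4.68) in Ngn3-TOMATO cells and 0.239 times (0.193 to 0.297) in Ngn3-negative cells.

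**Figure D4:**
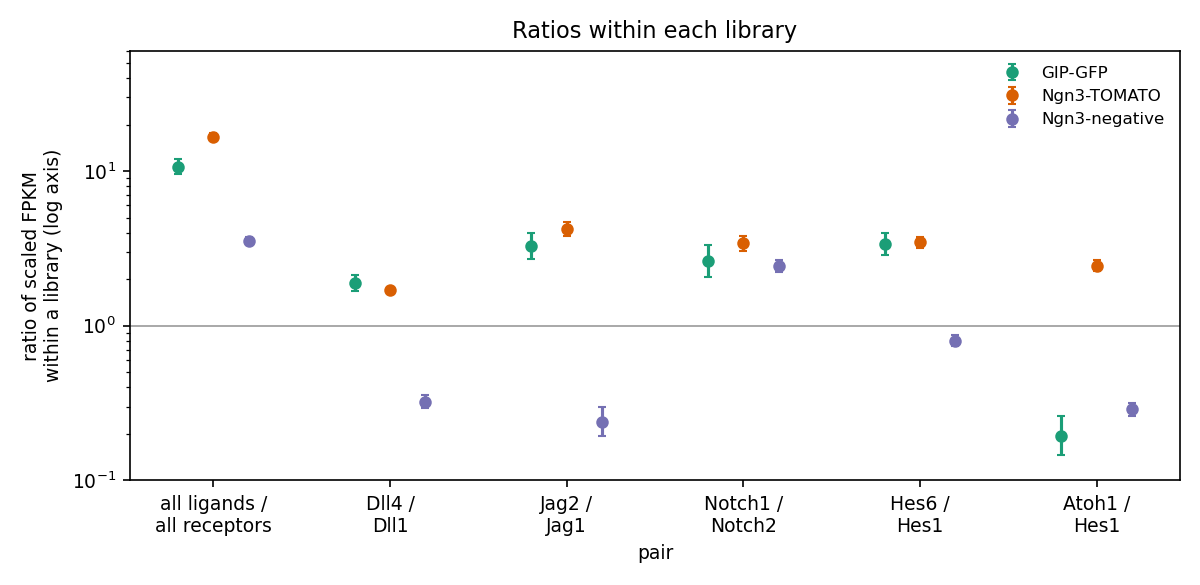
Ratio of scaled FPKM between genes of the same library (log axis), with 95% counting intervals and a line at equal levels. The reporter sorts lie together, above 1, for Hes6 over Hes1 (3.39 and 3.46), whereas for Atoh1 over Hes1 GIP-GFP (0.194) lies beside Ngn3-negative (0.288).

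The other genes of the pathway, 72 listed by role, were read beside the members. Of 65 measured in Ngn3-TOMATO and Ngn3-negative, 17 were higher past 2-fold and 5 lower, with a median log2 ratio of 0.35. For GIP-GFP over Ngn3-negative 12 of 62 were higher and 10 lower (median 0.02), and for GIP-GFP over Ngn3-TOMATO 4 of 65 were higher and 11 lower (median -0.14). In these comparisons 26.2%, 19.4% and 6.15% of the measured list were higher and 7.69%, 16.1% and 16.9% lower, to be read beside the shares of all genes given above.

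Of the further ligands and receptors, 2 of 3 measured were higher in each reporter sort than in Ngn3-negative. Over all genes, 19.2% were higher in Ngn3-TOMATO and 21.0% in GIP-GFP. Dner, a ligand-like membrane protein of neurons, was at 60.6 scaled FPKM in GIP-GFP cells, 35.2 in Ngn3-TOMATO cells and 0.865 in Ngn3-negative cells. Dlk1, a Delta-like protein without the receptor-binding domain, was at 19.5, 9.41 and 0.0428. Both had GIP-GFP highest, unlike the members Dll4 and Jag2. In the ligand endocytosis group 1 of 5 was higher in Ngn3-TOMATO than in Ngn3-negative, the ubiquitin ligase gene Neurl1a, at 13.7 against 1.5, and it was at 1.68 in GIP-GFP. Mib1, whose product is needed for ligands to signal, was at 21.9, 22.1 and 17.2 in the order GIP-GFP, Ngn3-TOMATO and Ngn3-negative, and Mib2 was at 21.3, 23.9 and 25.6.

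A further group holds the enzymes that add sugars to the receptors or cut them. Of 5 glycosylation genes 1 was higher in Ngn3-TOMATO than in Ngn3-negative, 1 of 4 measured was lower in GIP-GFP than in Ngn3-negative, and 2 of 5 were lower in GIP-GFP than in Ngn3-TOMATO. Of 9 measured cleavage genes 1 was higher in each reporter sort than in Ngn3-negative and 0 were lower. Of all genes, 19.2% were higher and 9.96% lower in Ngn3-TOMATO, and 21.0% higher and 13.8% lower in GIP-GFP, than in Ngn3-negative. Between the reporter sorts 8.77% of all genes were lower in GIP-GFP. Lfng, a fringe enzyme that alters which ligands Notch answers, was at 4.26 scaled FPKM in GIP-GFP cells, 17.0 in Ngn3-TOMATO cells and 10.4 in Ngn3-negative cells. Poglut1 was at 29.6, 24.1 and 14.9 and Pofut1 at 12.7, 15.3 and 21.8 in that order. Psen2, a catalytic subunit of gamma-secretase, was at 33.0, 37.6 and 18.6, with a log2 ratio of 0.98 (0.77 to 1.19) for Ngn3-TOMATO over Ngn3-negative. Aph1a, another subunit, was at 10.5, 9.67 and 14.5, and the receptor-shedding protease gene Adam17 at 16.4, 18.7 and 22.9.

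Of 10 genes of inhibition and turnover, 2 were higher in Ngn3-TOMATO and 3 in GIP-GFP than in Ngn3-negative, and 0 were lower. Among all genes, 19.2% were higher and 9.96% lower in Ngn3-TOMATO than in Ngn3-negative. For GIP-GFP these shares were 21.0% and 13.8%. Dtx3, of the Deltex family of ubiquitin ligases, was at 105 scaled FPKM in GIP-GFP cells, 40.8 in Ngn3-TOMATO cells and 2.77 in Ngn3-negative cells. Dtx1 was at 15.9, 2.69 and 0.946 and Dtx3l at 27.3, 20.8 and 39.2 in that order. Dtx3 and Dtx1 were thus highest in GIP-GFP and Dtx3l in Ngn3-negative.

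In the nuclear complex 3 of 18 genes were higher and 1 lower in Ngn3-TOMATO, and 4 higher and 1 lower in GIP-GFP, than in Ngn3-negative. The shares higher, 16.7% and 22.2%, were near the 19.2% and 21.0% of all genes. The share lower was 5.56% in each, against 9.96% and 13.8% of all genes. Rbpj, the DNA-binding partner of cleaved Notch, was at 5.84 scaled FPKM in GIP-GFP cells, 5.13 in Ngn3-TOMATO cells and 6.67 in Ngn3-negative cells, within 2-fold throughout. Tle2, a corepressor that Hes proteins recruit, was at 76.8, 47.1 and 1.33, and Tle4 of the same family was at 19.9, 17.9 and 42.0. The coactivator gene Maml3 was at 27.0, 18.6 and 4.78, and the histone acetyltransferase gene Kat2b at 51.5, 24.3 and 17.3. Rbpj and Tle4 were named after their values were seen.

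Of the further targets, 4 of 7 measured were lower and 1 higher in Ngn3-TOMATO than in Ngn3-negative, and 4 of 5 measured were lower in GIP-GFP. The shares lower were 57.1% and 80.0%, against 9.96% and 13.8% of all genes, and the share higher in Ngn3-TOMATO was 14.3%, against 19.2%. Olfm4, a crypt base gene that Notch maintains, was at 606 scaled FPKM in GIP-GFP cells, 1035 in Ngn3-TOMATO cells and 2645 in Ngn3-negative cells. Myc was at 19.9, 32.7 and 66.4, and Sox9, which marks crypt cells, at 9.56, 23.2 and 27.6. Olfm4, Myc and Sox9 had the order of Hes1, with Sox9 within 2-fold, at -0.24, for Ngn3-TOMATO over Ngn3-negative. Hes2 had that order too, at 3.72, 4.50 and 11.7. Nrarp, at 26.2, 19.5 and 44.3, was also highest in Ngn3-negative, but GIP-GFP was above Ngn3-TOMATO. Hey1 and Hes7 had Ngn3-TOMATO highest, at 0.402, 1.23 and 0, and at 0.600, 1.33 and 0.497. Both were near the level of 1 needed to be counted. Hey1, the 1 target counted as higher, had a log2 ratio of 1.16 (0.90 to 1.41) over a listed 0. For Hes7 the same ratio was 0.64 (-0.01 to 1.29), and its intervals included 0 in every comparison, so its order is not settled. Hes2, Nrarp, Hey1 and Hes7 were named after their values were seen. The stem cell markers other than Olfm4 (Lgr5, Ascl2, Smoc2 and Axin2) summed to 156, 137 and 225, with 0 of 4 at 0 in any library. The sum was highest in Ngn3-negative, with GIP-GFP above Ngn3-TOMATO through Smoc2, at 116, 65.1 and 122. Lgr5 (3.96, 12.1 and 21.3), Ascl2 (4.41, 11.3 and 23.5) and Axin2 (31.4, 48.9 and 57.9) had the order of Hes1. The part of stem cells in the values of these targets was not tested.

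The list of factors downstream of Atoh1 held 8 genes: Gfi1, Spdef, Neurog3, Insm1, Gfi1b, Sox4, Bhlha15 and Creb3l1. Whether each acts after Atoh1 was not tested. Of these 8, 6 were higher in Ngn3-TOMATO than in Ngn3-negative. In GIP-GFP 2 were higher and 3 lower than in Ngn3-negative, and 1 was higher and 6 lower than in Ngn3-TOMATO. The share higher in Ngn3-TOMATO was 75.0%, against 19.2% of all genes. For GIP-GFP over Ngn3-negative 25.0% were higher and 37.5% lower, against 21.0% and 13.8% of all genes. For GIP-GFP over Ngn3-TOMATO 12.5% were higher and 75.0% lower, against 8.04% and 8.77%. Spdef, which matures goblet and Paneth cells, was at 7.06 scaled FPKM in GIP-GFP cells, 117 in Ngn3-TOMATO cells and 26.1 in Ngn3-negative cells, and Gfi1, a repressor of endocrine fate in secretory progenitors, at 1.81, 22.0 and 8.07. Both had the order of Atoh1. Insm1, which promotes endocrine differentiation, was at 545, 242 and 6.82 and so had GIP-GFP highest.

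**Figure D5:**
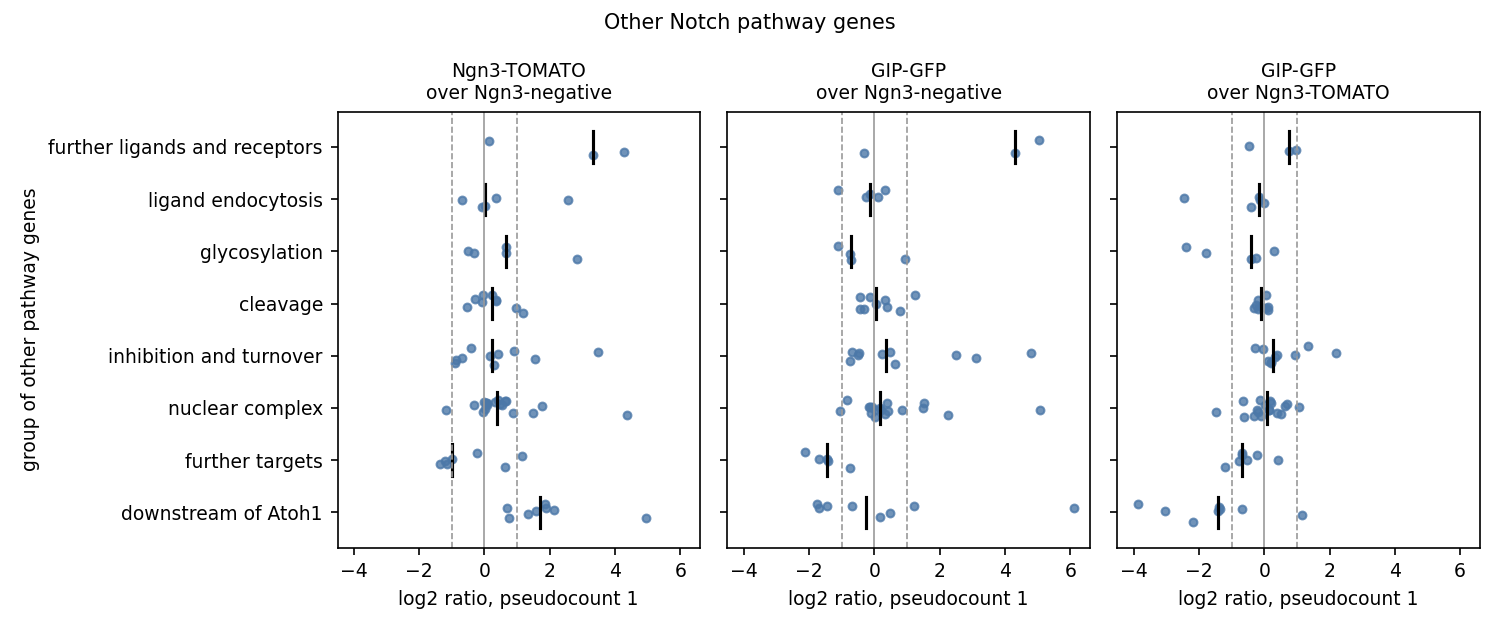
Log2 ratios of the other pathway genes by role for the 3 pairs of libraries, 1 point per gene, spread vertically for legibility, with the group median as a bar and dashed lines at 2-fold. The median of the further targets was -1.44 in the second pair. That of the factors listed as downstream of Atoh1 was 1.72, -0.27 and -1.41 in the pairs from left to right.

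For 1 member of each role, the genes with the nearest pair of log2 ratios over Ngn3-negative were sought among 10438 genes that reached 10 scaled FPKM in any library. With 3 libraries the distance is a description of these values. Nearest to Dll4 were Cutal at a distance of 0.163 and the GIP receptor gene Gipr at 0.188. Nearest to Notch1 were the kinase gene Nek6 at 0.00760, Plpp2 at 0.0207 and the fatty acid transporter gene Slc27a2 at 0.0420. Nearest to Atoh1 were Grin1os at 0.136, which was listed at 0 in GIP-GFP, 2010001K21Rik at 0.222 and Ern2, an endoplasmic reticulum stress sensor of mucus-secreting cells, at 0.243. Ern2 was at 3.02 scaled FPKM in GIP-GFP cells, 79.3 in Ngn3-TOMATO cells and 19.9 in Ngn3-negative cells.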

How the data were processed

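Messenger RNA of 3 pooled libraries was measured, 1 per group. The submitters' processing notes name FastQC, TopHat 1.5.0, Cufflinks (no version) and the mm10 build. The authors deposited, for each of 59120 UCSC transcript models, the FPKM with its limits and the coverage, a signal of mean read depth per base. The deposited FPKM is proportional to coverage in each library and sums to about 1.016e+10 in GIP-GFP, so its library term is not the usual one. Transcripts with status HIDATA (none in GIP-GFP, 4 in Ngn3-TOMATO, 9 in Ngn3-negative) were treated as missing. Every model of the 10 genes had status OK. Among the other pathway genes, Tle1 had a model with status LOWDATA in each library and Tle3 a model with status FAIL in Ngn3-TOMATO. Both genes were kept in the counts.

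Transcripts were matched to GENCODE M21 symbols without strand, by shared ends within 5 bases or a span overlap of at least 0.5 together with spliced length, and 51579 received a symbol. FPKM of transcripts of 200 bases or more was summed per symbol, without mitochondrial transcripts, and divided by 8168, so that the mean total was 1000000. Genes at 1 or more in a compared library were kept. Intervals take the deposited FPKM limits as 2 standard errors. The ratio and interval steps were run on simulated Poisson fragment counts, with standard errors taken from the same counts. Such data could not test the deposited limits, their reading as 2 standard errors, or the scaling between libraries. Other pathway genes were named as the 3 with the largest log2 ratio in any comparison among those at 10 or more. The 3 genes nearest in pattern were sought for 1 member of each role, and 1 of those for Dll4 is not reported here. The members, lists and named genes were chosen with earlier results of these data known. Python 3.11.15, pandas 2.3.3, numpy 2.4.6 and matplotlib 3.10.9 were used.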

Additional observations from a re-analysis of the deposited data

How the results depend on the processing

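The 10 alternatives changed the pseudocount, filter, transcript sum, length minimum, symbol match and scaling, and no ratio of the 10 genes changed sign. No replicate could be left out, and no paired analysis was possible because each group has 1 library. With a pseudocount of 0.1, and with equal totals, the members lower in Ngn3-TOMATO than in Ngn3-negative numbered 2 in place of 1, Notch2 being added. With only shared transcript ends, the match of Jag2 and Atoh1 was dropped, so the members higher in that comparison numbered 1, and the ratio of ligands to receptors was 8.57 in GIP-GFP and 14.6 in Ngn3-TOMATO. The other pathway genes lower in Ngn3-TOMATO than in Ngn3-negative numbered 3 in place of 5 with a pseudocount of 5 or with shared ends, and those lower in GIP-GFP than in Ngn3-negative 4 in place of 10 with a pseudocount of 5. With that pseudocount the count of all genes higher in Ngn3-TOMATO than in Ngn3-negative was 1494 in place of 2582, and in GIP-GFP 1782 in place of 2829. Between the reporter sorts it was 599 higher and 670 lower, in place of 1103 and 1203. Equal totals moved the median log2 ratio of all genes from 0.03 to -0.20 for Ngn3-TOMATO and from 0.07 to -0.13 for GIP-GFP over Ngn3-negative. Relative to that median Dll4, Jag2, Hes1 and Atoh1 kept their direction. Depth limits Notch3 in every library, Jag2 in Ngn3-negative, at 1.02 reads per base, and in GIP-GFP Notch2 at 0.390, Notch1 at 1.03, Jag1 at 1.23 and Atoh1 at 1.42.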
